A study of Microtus ochrogaster with 34 samples.

Results

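The genes described here were abundant in the testes of winter voles that had stopped making sperm, and stood there at a moderately raised level. On the deposited scale they lay close to the summer level in winter males that kept spermatogenesis. They were chosen from the 3 group means of RPKM as deposited, a read count divided by exon length and a scale for each library. That scale differs from the library's total of counted reads. The limits were a mean of at least 50 RPKM in the W- group and a ratio of W- to S means from 2 to under 4. The W+ mean had to be less than 15% above the S mean. The rule gave 96 of the 23038 genes in the file. Of 1890 genes with a W- mean of at least 50 RPKM, 507 met the limits on the ratio of W- to S, and 411 of these were above the limit on W+. Because the rule used all 3 group means, every difference between the groups that follows is a description of the genes chosen. Counts of members called in a fit to all genes are also given, as descriptions and not as tests of the members.

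The animals were wild fossorial water voles, Arvicola terrestris scherman, and the reads of each testis were aligned to the genome of a related species, the prairie vole Microtus ochrogaster. The S group held 18 males caught in July or August. The 16 winter males were divided by testis phenotype into W+, the 5 males that maintained spermatogenesis, and W-, the 11 males that did not, which pooled both non-maintaining histological phenotypes of the study, with no label to separate them. All animals carried the label WT for genotype, no agent was given, ages were not given in the labels, and each library was made from the polyadenylated RNA of 1 testis sample.

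In seasonal breeders, the testis regresses outside the breeding season: the seminiferous tubules shrink, meiosis and spermatid formation stop, and Sertoli cells, spermatogonia, Leydig cells and other interstitial cells remain. A transcript of the remaining cells can then form a larger part of the RNA of the whole organ. In bulk testis RNA, a change in the number of cells of a type and a change in RNA per cell cannot be told apart.

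The file names genes by Ensembl vole identifiers, and no source used here pairs these with gene symbols, since 0 of 26397 genes in the reference table had an Ensembl identifier. The roles of the members, lists of pathway genes, markers of testicular cell types and gene sequences were therefore not analysed here, and the tissue label was not checked against its markers. Members are described by their values, exon lengths and behaviour across animals, and 4 identifiers, all chosen after their values were seen, are printed as examples.

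The values came back as whole reads for 100% of the 20821 genes above 0 (tolerance 0.02 reads), which gave the depth of each library. The reads counted on genes ranged from 5534633 to 63857259 in S (median 7504568), from 4960104 to 8576453 in W+ (median 6440073) and from 2938627 to 9653984 in W- (median 7986021). S replicates 12 to 15 held 63857259, 15639697, 43465783 and 25419231 counted reads, and no other library held more than 9653984. A member had a median of 448 reads per library, with a lowest value of 7 and a highest of 43828. The members took 0.551% ± 0.0516 of the counted reads in S (SD, n = 18), 0.760% ± 0.214 in W+ (SD, n = 5) and 2.13% ± 0.517 in W- (SD, n = 11). In W- replicate 5, the shallowest library, the share was 2.32% with a 95% Wilson interval of 2.30% to 2.33%, which covers counting error only. The share ran from 1.57% to 3.03% over the W- animals and from 0.467% to 0.671% over the S animals.

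In W-, the members' group means ran from 51.3 to 910 RPKM with a median of 143.9 RPKM, and 12 members were at 500 RPKM or more, 49 from 100 to 500 and 35 under 100. The same genes had group means of 15.9 to 407.6 RPKM in S (median 61.9) and 14.1 to 430.1 RPKM in W+ (median 67.7). The ratio of W- to S means had a median of 2.31 and quartiles of 2.16 and 2.53. Most members therefore lay near the lower limit of 2, and the highest ratio was 3.58. The ratio of W+ to S means had a median of 1.07 and ran from 0.781 to 1.149, with 17 members under 1. The ratio of W- to W+ means ran from 1.78 to 4.59 with a median of 2.14.

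Apart from the upper limit on the ratio of W- to S, the limits of the rule did not fall in gaps between the genes. The members nearest to the limits had a W- mean of 51.3 RPKM, a ratio of W- to S of 2.00 and a ratio of W+ to S of 1.149, and the nearest genes outside had 49.9 RPKM, 1.99 and 1.153. The upper limit of 4 was not reached, since the member with the highest ratio was at 3.58 and the nearest gene beyond it, among those that met the other limits, was at 4.26. Along the ratio of W+ to S, the 507 abundant, moderately raised genes formed 1 run, with 31 genes at 10% to 15% above the S mean, 45 at 15% to 20% and a peak of 70 at 25% to 30%. The members were thus the lower tail of that run, 96 of 507 genes. The other 411 genes had a median ratio of W- to S of 2.86 and a median ratio of W+ to S of 1.33.

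**Figure D1:**
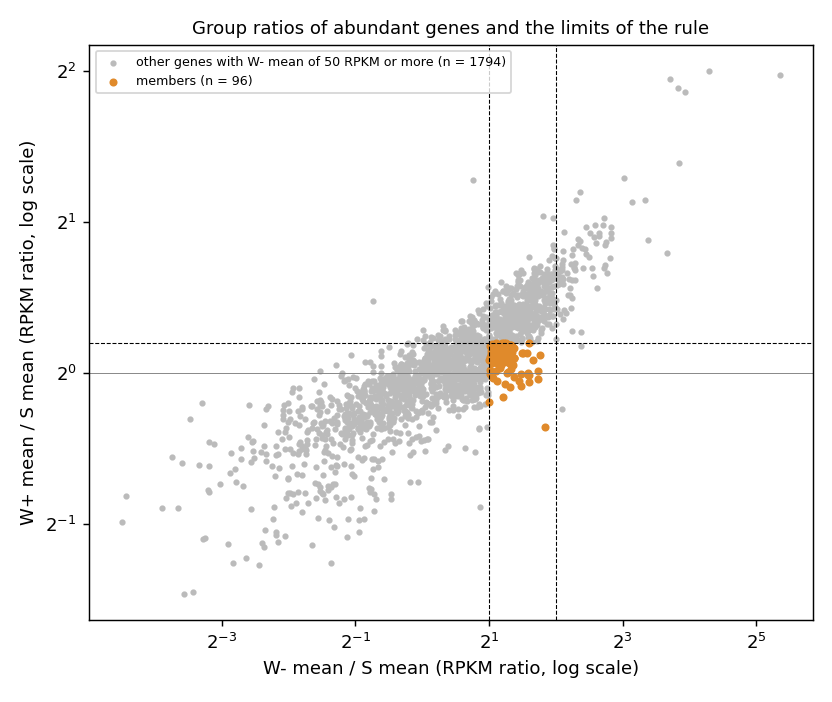
Ratio of W- to S means (x axis, log scale) against ratio of W+ to S means (y axis, log scale) for 1890 genes with a W- mean of at least 50 RPKM, 1 point per gene. Dashed lines mark the limits of the rule. The 96 members (orange) continue into the 411 genes above the horizontal line, with no gap between them.

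Across animals, the W- libraries differed from each other in how far the members were raised. Relative to each member's S mean, the median member stood in W- replicates 1 to 11 at 3.45, 2.90, 2.48, 3.32, 2.35, 1.84, 1.95, 1.66, 1.86, 1.84 and 1.73 times. Replicates 1 to 5 were thus at 2.35 times or more and the other 6 at 1.95 times or less, and no label separates these animals. The number of members at 2 times their S mean or more was 94 in replicate 1, 90 in replicate 2, 75 in replicate 3, 89 in replicate 4 and 71 in replicate 5, and from 17 to 39 in the other 6. For 77 of the 96 members, the highest W- value was that of replicate 1 or replicate 4.

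The summer libraries lay close together, with the median member between 0.887 and 1.147 times the S mean in all but S replicate 10, which was at 0.779 times. S replicate 10 was the lowest of the S libraries for 40 members and the highest for 15. Its quartiles over members were -0.90 and 0.25 on the log2 scale of RPKM relative to the S mean, a wider range than in any other library. In the median over all 1890 abundant genes this library was at -0.02 on the same scale, and that median differed by exon length, as described below.

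In W+, 1 library stood apart. The median member was at 1.42 times the S mean in W+ replicate 1, and at 0.947, 0.978, 0.991 and 0.987 times in W+ replicates 2 to 5. W+ replicate 1 was the highest of the W+ libraries for 79 members and lay above every S library for 60 members. Over all genes tested, 20.7% lay above every S library in W+ replicate 1, and nothing is read from the difference because that library entered the rule. The number of members above every S library was 3, 0, 1 and 0 in W+ replicates 2 to 5. Without W+ replicate 1, the median ratio of W+ to S over the members was 0.980 and 58 members were under 1, against 1.07 and 17 with it.

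**Figure D2:**
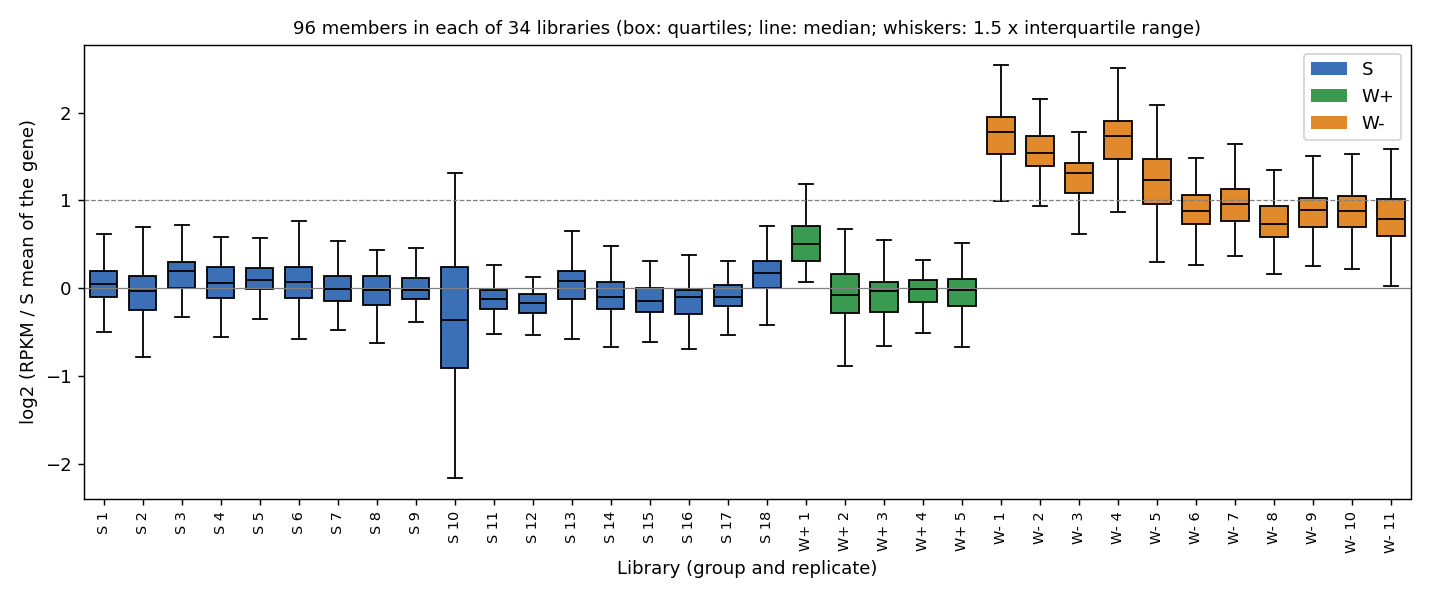
RPKM of the 96 members relative to each gene's S mean (y axis, log2 scale, pseudocount 0.1) in each of the 34 libraries (x axis). Boxes are quartiles with the median line, whiskers reach 1.5 times the interquartile range, and the dashed line marks 2 times the S mean. W+ replicate 1 has a median of 0.50, against -0.08 to -0.01 in the other W+ libraries, and the W- medians run from 0.73 to 1.78.

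The position of W+ replicate 1 between the groups was shared with the other moderately raised genes. Over the 411 genes above the limit on W+, the median on the log2 scale was 0.96 in W+ replicate 1 and 0.26, 0.28, 0.21 and 0.25 in W+ replicates 2 to 5. Over all 1890 abundant genes it was 0.19 in W+ replicate 1 and -0.04 to 0.02 in the other 4. Without W+ replicate 1, the rule gave 253 genes, which held all 96 members, so that the size of this gene group rested on that library. The median ratio of W+ to S over the 411 genes was 1.18 without it.

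Single members overlapped between animals to different degrees. Every W- library was above every S library for 58 of the 96 members, where 15.1% of the 19185 genes tested showed this pattern. For 11 members 10 of the 11 W- libraries were above every S library, for 17 members 7 to 9 were, and for 10 members 1 to 6 were. Every W- library was above every W+ library for 56 members (10.4% of genes tested). No member had all W+ libraries above all S libraries (0.839% of genes tested) or all below (5.23%). Nothing is read from these shares, because the rule used the same means.

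In a limma fit to all genes, called at an adjusted p under 0.05 and a log2 difference beyond 1 on the log2(RPKM + 0.1) scale, 85 members were higher in W- than in S, where 22.8% of genes tested were called higher, and 0 were lower, where 28.7% were called lower. In the same fit 66 members were higher in W- than in W+ (15.4% of genes tested). None of the 96 members was called different between W+ and S, where 8.23% of genes tested were called in either direction. At an unadjusted p under 0.05 in limma, the count for W+ against S was also 0 members, while 37.6% of genes tested passed. These counts again follow from the choice of members by their means. The median log2 difference over the members was 1.17 for W- minus S (-0.04 over all genes tested), 1.07 for W- minus W+ (0.02 over all) and 0.10 for W+ minus S (-0.06 over all).

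The member with the highest W- mean was ENSMOCG00000014457, with an exon length of 1752 bases. Its RPKM values in W- replicates 1 to 11 were 2146, 1162, 830, 1274, 892, 584, 544, 751, 590, 537 and 706. In W+ replicates 1 to 5 they were 469, 345, 344, 318 and 273, and in S they ran from 185 to 433 with a median of 323. Every W- value was above every value of both other groups. The group means were 910 ± 477 RPKM in W- (SD, n = 11), 350 ± 72.9 in W+ (SD, n = 5) and 319 ± 59.7 in S (SD, n = 18). Without W- replicate 1, the highest library, the W- mean was 787 RPKM and the ratio of W- to S 2.47.

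ENSMOCG00000008628, with 1501 bases of exon, had both the highest ratio of W- to S, 3.58, and the lowest ratio of W+ to S, 0.781. Its RPKM values in W- replicates 1 to 11 were 60.5, 110.5, 51.2, 72.6, 235.3, 25.4, 24.5, 39.8, 27.9, 23.0 and 41.1. In W+ replicates 1 to 5 they were 21.8, 16.1, 10.3, 9.39 and 12.9, and in S they ran from 10.0 to 28.5 with a median of 17.8. Here the groups overlapped, since 4 W- animals lay within the S range and W- replicate 5 was the highest of all. All W- animals were above all W+ animals, the nearest being 23.0 RPKM in W- replicate 10 and 21.8 RPKM in W+ replicate 1. Without W- replicate 5 the W- mean was 47.6 RPKM, under the limit of the rule, and the ratio of W- to S 2.64.

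The members ENSMOCG00000016063 and ENSMOCG00000018254 had the largest SD of log2 RPKM among W+ animals, 1.92 and 1.90. In W+ replicates 1 to 5, ENSMOCG00000016063 was at 50.8, 52.3, 2.71, 26.0 and 5.62 RPKM and ENSMOCG00000018254 at 48.4, 50.6, 2.71, 23.6 and 5.15 RPKM. W- replicate 4 was at 411 and 393 RPKM, where the medians over the W- animals were 43.2 and 40.8 RPKM. Without that library the W- means were 50.5 and 48.3 RPKM and the ratios of W- to S 1.82 and 1.84, under the lower limit of the rule. S replicate 16 was the highest S library for both, at 140 and 133 RPKM, above 10 of the 11 W- animals. With all libraries the ratios were 3.00 and 3.03, from groups that overlapped widely.

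Both of those models have 429 bases of exon, and the ratio of their reads stayed between 1.00 and 1.13 in all 34 libraries. Their correlation of log2 RPKM over 34 libraries was 0.9995, as a description of libraries that share depth and group. Among the 4560 pairs of members, 4 had a ratio of reads whose highest and lowest values over the libraries differed by less than 1.2 times, and 2 of these pairs had equal exon lengths. Pairs with few reads can pass this range through counting error, so further steady pairs may have been missed. Of the 96 members, 21 shared their exact exon length with another member, up to 4 members at 483 bases. The pairs with both a steady ratio and equal exon length may be near-identical copies between which the counting could split or double reads. This was not tested, and their values are uncertain. How reads that align to several places were counted is not given in the sources used here, and the number of independent transcripts behind the 96 identifiers is not known.

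**Figure D3:**
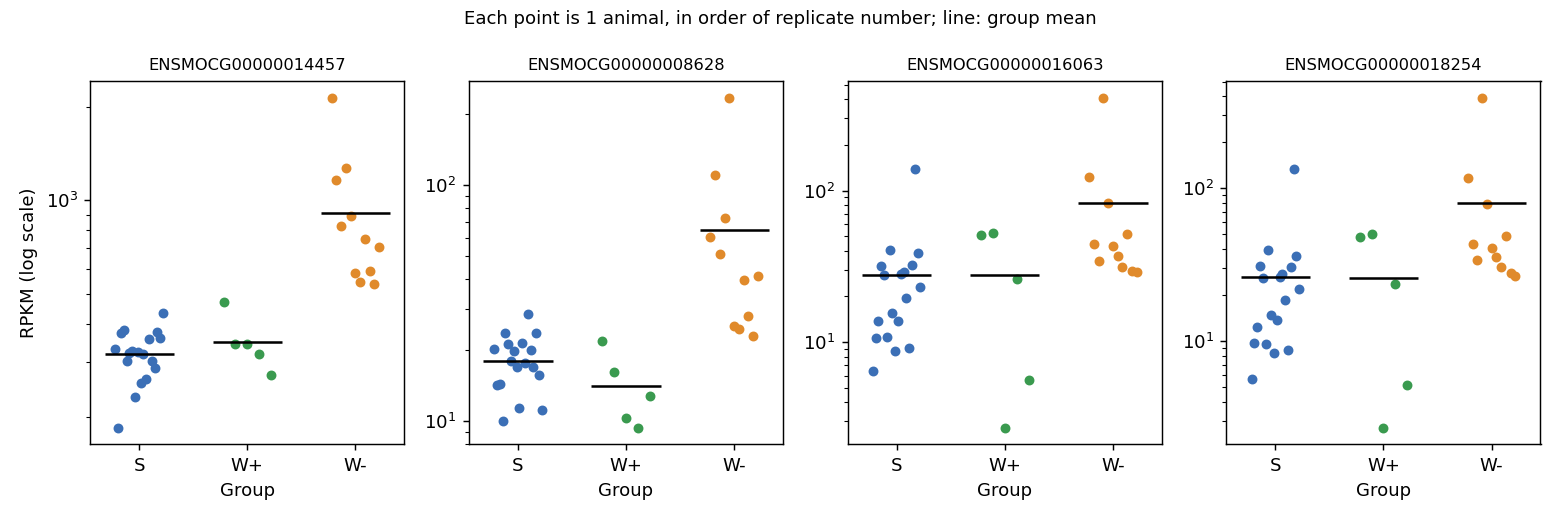
RPKM (y axis, log scale, a separate scale per panel) of 4 members in S, W+ and W- (x axis), 1 point per animal in order of replicate number, with the group mean as a line. ENSMOCG00000014457 shows every W- animal above the other groups, whereas the last pair of panels shows nearly the same points, with W- replicate 4 far above the other W- animals.

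The members varied more among W- animals than among S animals. The SD of log2 RPKM within a group had a median over members of 0.43 in W-, 0.28 in S and 0.30 in W+, and 83 of the 96 members had a larger SD in W- than in S. Over the 1890 abundant genes the medians were 0.34 in W-, 0.20 in S and 0.25 in W+. Over the 411 genes above the limit on W+ they were 0.36, 0.25 and 0.38, so a larger spread in W- than in S was not particular to the members. The SD among W- animals ran from 0.14 to 1.21 over the members, so that some were nearly level across the 11 animals.

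Within a group the members also varied together. Among the 11 W- libraries, the median pairwise correlation of log2 RPKM between members was 0.77, and 0.24 between the other abundant genes. Among the 5 W+ libraries it was 0.67 between members and 0.08 between other abundant genes, and among the 18 S libraries 0.12 and 0.03. These correlations are descriptions over libraries that share depth, scaling and RNA preparation, with 11, 5 and 18 points. With few points, single libraries can set much of a correlation. W+ replicate 1 was the highest W+ library for 79 members, and the median member was higher in W- replicates 1 to 5 than in the other W- libraries. The 1794 other abundant genes included genes not raised in W-, and the 411 genes above the limit on W+ were not examined alone. In W-, 88.4% of member pairs were correlated above 0, whereas in S the figure was 60.0%.

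The members had short gene models. The rule set no limit on length, but length entered it through RPKM, which is divided by exon length, so the 1890 abundant genes are the set for comparison. Their exon length, recovered with the reads, had a median of 517.5 bases (quartiles 408 and 754.5), against 1192 bases over the 1890 abundant genes, 1304 bases over the 411 genes above the limit on W+, and 1608 bases over 20798 genes. Of the 96 members 81 (84.4%) had at most 1000 bases, against 45.2% of the abundant genes and 43.1% of the 411 genes. Only 15 members were longer than 1000 bases, and 2 were under 200. The length could be divided by 3 for 80.2% of the members, 59.0% of the abundant genes and 53.1% of all genes with a recovered length. Gene models without untranslated ends have such lengths, but whether the members' models lack these ends was not tested.

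Length also went with the values in the W- animals over the abundant genes as a whole. For the 432 abundant genes of up to 500 bases, members included, the library medians relative to the S mean were 1.13, 0.98, 0.73, 1.202 and 0.68 on the log2 scale in W- replicates 1 to 5, and 0.23 to 0.41 in replicates 6 to 11. For the 537 abundant genes over 2000 bases they ran from -0.06 in W- replicate 4 to 0.34 in W- replicate 11, with no such separation. The animals in which the members were highest were thus those in which abundant genes of up to 500 bases were highest as a whole. Among the members, the 47 of up to 500 bases were at 0.72 to 1.84 over the W- animals, and the 15 over 1000 bases at 0.89 to 1.69. The 47 were at 1.23 or more in W- replicates 1 to 5 and at 0.97 or less in replicates 6 to 11. The 15 showed no such separation. For them W- replicate 3 was the lowest at 0.89, and W- replicates 7 and 10, both at 1.22, were above W- replicate 5 at 1.17. S replicate 10 was the S library with the lowest member median. It was at -0.66 for the 47 members of up to 500 bases and at -0.13 for the next 34 of up to 1000. For the next 9 of up to 2000 it was at -0.46 and for the 6 over 2000 bases at 0.05, with no steady order by length among members. Over the abundant genes of the same classes it rose with length, from -0.27 and -0.15 to -0.01 and 0.11. RNA quality values were not among the labels, and the part of exon or transcript length in the members' values was not tested.

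**Figure D4:**
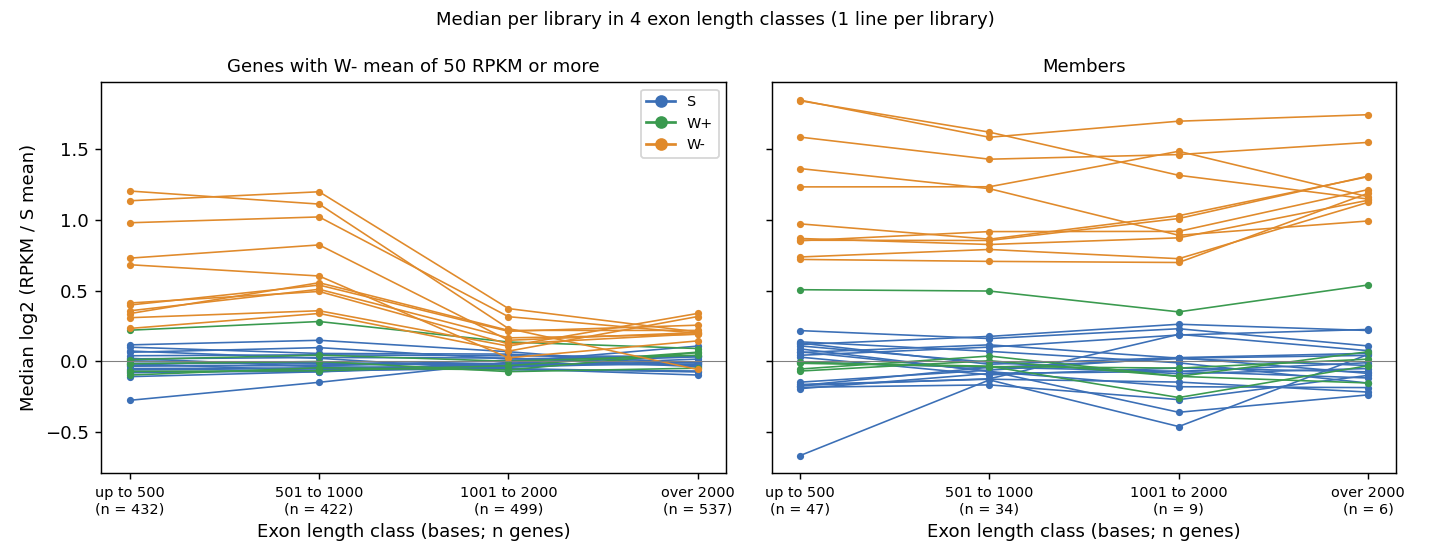
Median log2 of RPKM relative to the S mean (y axis) in 4 classes of exon length (x axis, bases), 1 line per library, for 1890 abundant genes on the left and 96 members on the right. Among abundant genes the W- lines are highest and most spread up to 1000 bases and lie between -0.06 and 0.34 over 2000 bases, and among members the W- points lie between 0.70 and 1.84.

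The placing of the members near the summer level in W+ depended on the scaling of the libraries. The deposited values carry a scaling between libraries that differs from their total of counted reads. When the recovered reads were scaled to those totals instead, the median over all genes tested shifted to 0.54 for W- minus S, 0.34 for W- minus W+ and 0.25 for W+ minus S on the log2 scale, and the members' medians to 1.88, 1.44 and 0.45. Under this scaling 94 of the 96 members had a W+ mean at least 15% above the S mean, with a median ratio of 1.39, and the median ratio of W- to S was 3.76. Relative to the median of all genes, the members stood 1.34 higher in W- than in S and 0.20 higher in W+ than in S, compared with 1.21 and 0.16 as deposited. Under quantile normalization the members' medians were 1.81 for W- minus S and 0.43 for W+ minus S, and 89 members were at least 15% above S in W+. The median level in W- was above S under each of these scalings, while the words "only after regression" describe the deposited scale.

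Under the total scaling the library medians of the members were 1.06 in W+ replicate 1 and 0.24, 0.27, 0.27 and 0.24 in W+ replicates 2 to 5, so that all 5 were above the S mean. The median over all 1890 abundant genes was then 0.75 in W+ replicate 1 and 0.24 to 0.31 in the other 4. The members' median minus that of the abundant genes ran from -0.04 to 0.00 in W+ replicates 2 to 5 under both scalings, and was 0.31 in W+ replicate 1 under both.

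**Figure D5:**
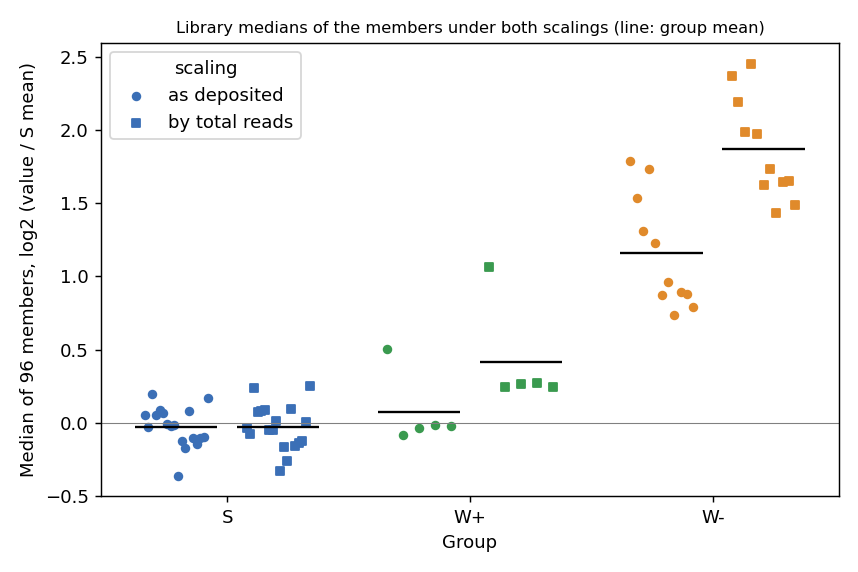
Median over the 96 members of the log2 value relative to the S mean (y axis) per library in S, W+ and W- (x axis), as deposited (circles) and scaled by total counted reads (squares), with the group mean as a line. The W+ libraries lie at -0.08 to 0.50 as deposited and at 0.24 to 1.06 by total reads, and the W- libraries lie above all S libraries under both.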

How the data were processed

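Testis RNA of 34 wild voles (18 S, 5 W+, 11 W-, grouped by the titles in the labels) was sequenced as single-end reads of polyadenylated RNA. The authors trimmed reads with Trim Galore 0.6.10, checked them with FastQC 0.12.1, aligned them by HISAT2 against MicOch1, the prairie vole assembly, obtained gene counts from HTSeq-count, and derived RPKM alongside a DESeq2 analysis. The deposited RPKM values are the unit used here. Whether counting used strand is not given in the sources used here. Whole reads, exon lengths and library totals were recovered from the steps of the RPKM values. The members were chosen by group means of RPKM. Genes with at least 0.1 RPKM in at least 5 libraries were fitted with limma 3.58.1 (R 4.3.3) on log2(RPKM + 0.1), with 3 groups, an intensity trend and Benjamini-Hochberg adjustment. Called genes had an adjusted p under 0.05 and a log2 difference beyond 1. Scripts were tested on simulated data. Tables were handled with numpy 2.4.6, pandas 2.3.3 and scipy 1.17.1.

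The members, lists and tests were chosen with earlier results of these data known. The rule for named genes asked for symbols, and without them allowed at most 2 identifiers that were raised and 2 that were lowered. The first 2 printed are the members with the highest W- mean and the highest ratio of W- to S, and the others, with a W+ mean slightly under the S mean, are those with the largest SD among W+ animals. The planned promoter motifs and gene lists could not be used without symbols. Separate animals are the replicates. Replicate numbers do not pair animals across groups. Alternatives were other scalings, pseudocounts, filters, voom, medians, a replicate block and leaving out libraries.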

Additional observations from a re-analysis of the deposited data

Results flagged for a closer look

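Among the 5 W+ libraries, 1 library lay far from the others in the members' share of counted reads and in their median level. The share was 1.14% in W+ replicate 1 and 0.644% to 0.703% in the others, a gap of 0.882 of the group's whole range. The median log2 level relative to the S mean was 0.50 in W+ replicate 1 and -0.08 to -0.01 in the others, a gap of 0.885 of the range. Both gaps were past Dixon's limit of 0.71 for 5 libraries, out of 6 measures examined, and chance passes this limit in about 1 in 20 groups. The values of W+ replicate 1 entered the rule that chose the members, so these gaps describe the libraries over the chosen genes and support nothing about the members. Both measures rest on the same reads and are not separate evidence. For 23 of the 96 members (24.0%) a W+ library passed the limit, in each case W+ replicate 1 as the highest, and the share over the 1890 abundant genes was 17.5%. The position of this library was not tested against any property of the animal.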

How the results depend on the processing

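The rule gave 48 genes under total scaling (1 shared with the 96), 20 with RPKM scaled to the same sum (0 shared) and 253 without W+ replicate 1, beside 70 under quantile normalization (3 shared), 144 with group medians (47 shared), 97 with geometric means (80 shared) and 100 without S replicates 12 to 15 (84 shared). Leaving out 1 library gave 76 to 253 genes, or 80 to 111 for W- libraries and 87 to 101 for S libraries. Leaving out S or W- libraries in turn in the limma fits was chosen after the data were seen.

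Under total scaling, limma called 7437 genes higher in W- than in S and 5107 higher in W- than in W+ (4838 under quantile normalization, 1769 with a pseudocount of 1), against 4375 and 2955. Of genes called between W- and S, 44.2% were higher in W- as deposited, 59.4% under quantile normalization and 65.3% under total scaling. Genes called between W+ and S were 1010 with a pseudocount of 1 and 921 without W+ replicate 1, against 1579. Of the genes called between W+ and S, 14.5% were higher in W+ as deposited, 25.6% under quantile normalization and 62.3% under total scaling. The members' median log2 difference was 1.81 and 1.88 for W- minus S, and 0.43 and 0.45 for W+ minus S, under quantile and total scaling. Voom on the recovered reads called 4546 genes higher and 5830 lower in W- than in S. The cause of these shifts was not tested.

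With 1 library left out, the ranges were 4333 to 4434 genes higher and 5467 to 5561 lower in W- than in S, 2691 to 3403 higher in W- than in W+, and 921 to 1777 between W+ and S. Members called higher were 76 to 94 against S and 54 to 78 against W+, and 0 differed between W+ and S. The members' medians were 1.12 to 1.203, 1.02 to 1.21 and -0.01 to 0.14 for W- minus S, W- minus W+ and W+ minus S. The last changed sign without W+ replicate 1.

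With the replicate number as a block, 4440 genes were higher and 5522 lower in W- than in S, 3314 higher in W- than in W+ and 2001 different between W+ and S. Members called were 82, 89 and 0, and their median for W+ minus S was -0.14. Of 21 same-number pairs of deviations, 1 had a correlation over 0.1 (-0.16 to 0.14), so that the numbers gave no sign of pairing.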
